A study of Bos taurus with 8 samples.

Results

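HIF1A, STC1 and NDRG1 were followed in bovine choroidal endothelial (BCE) and bovine aortic endothelial (BAE) cells treated with leukemia inhibitory factor (LIF), a cytokine of the interleukin 6 family. They are 3 of the 25889 genes in the count table. They were picked from the genes that the study called after LIF in BCE cells, as the oxygen-regulated transcription factor HIF1A and a pair of genes known to be induced by hypoxia. It was also known at that point that STC1 has very few counts in BAE cells. All 3 identifiers (ENSBTAG00000020935 for HIF1A, ENSBTAG00000001687 for STC1 and ENSBTAG00000000711 for NDRG1) were found in the table, and their names were taken from the study's own gene annotation.

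There were 4 groups of 2 libraries. BCE cells received LIF at 10 ng/ml or vehicle (albumin in PBS) for 6 h, in medium with 10% bovine calf serum, after 3 h in that medium without the treatment. BAE cells received the same LIF dose or vehicle for the same time in medium with 1% serum. They too had first spent 3 h in their medium without the treatment. Before that, BCE cells had been grown with bFGF and VEGF on fibronectin and BAE cells without either factor. Cell type, serum and earlier growth factors therefore changed together and cannot be told apart. Both cell types are commercial primary stocks, the BAE cells of 1 lot, so the 2 libraries of a group measure the spread between samples of a stock and not between animals. Lowered oxygen is not described for any group of this experiment.

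Hypoxia-inducible factor 1 is a dimer of HIF1A and a constitutive partner, ARNT. In the presence of oxygen, prolyl hydroxylases mark the HIF1A protein for destruction through VHL, so its activity is set mainly at the protein level, which read counts do not show, while the amount of HIF1A mRNA sets how much protein can be made. STAT3, the main mediator of LIF, is among the factors known to act on HIF1A transcription. STC1 encodes stanniocalcin-1, a secreted glycoprotein hormone that acts locally on calcium and phosphate transport and on mitochondria. NDRG1 is a cytoplasmic protein named as a gene kept low by N-myc, and is known as a stress-responsive gene of many epithelia and tumours.

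Library totals ranged from 18600598 to 35269335 counts, and 15236 to 15768 genes were detected per library. A count of 3 corresponded to between 0.0873 and 0.156 CPM, which is counts scaled to a common library size (CPM) with TMM over all 8 libraries. The 2 libraries of each group differed by more than counting noise, with a chi-square per degree of freedom over genes from 2.57 to 9.72. The labelled cell types could not be checked against endothelial markers, since 0 of 10 such genes could be paired with an identifier. Of all 47 markers listed, 2 could be paired. CD14, a leukocyte marker, had 19.7 ± 1.08 CPM with vehicle and 27.3 ± 1.28 CPM with LIF in BCE cells, and 6.03 ± 0.469 and 12.1 ± 1.17 CPM in BAE cells (SD, n = 2). RGCC, a regulator of the cell cycle listed for the choroidal bed, had 79.0 ± 2.61 and 46.9 ± 1.34 CPM in BCE cells and 57.9 ± 1.87 and 37.3 ± 0.930 CPM in BAE cells. CD14 was thus higher in BCE cells and with LIF, as HIF1A and NDRG1 were. Both markers could be named only because the study had called them after LIF in BCE cells, so their change there was fixed by that choice. The part of other cell types in the results was not tested, and in whole-culture RNA a lower share of expressing cells and less RNA per cell cannot be told apart.

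HIF1A was lowest in vehicle-treated BAE cells, with 203 CPM (6964 counts) and 217 CPM (4729 counts) in the 2 libraries. With LIF, BAE libraries held 322 and 310 CPM. Vehicle-treated BCE libraries held 436 and 383 CPM, and LIF-treated BCE libraries 661 and 651 CPM. None of the 4 groups overlapped with another, and the order was vehicle-treated BAE, LIF-treated BAE, vehicle-treated BCE and LIF-treated BCE cells. With 2 libraries a group, such separation is common. Both LIF-treated libraries were above both vehicle-treated ones in 26% of genes in BAE and 20.1% in BCE cells. Without LIF, both BCE libraries were above both BAE libraries in 38.5%. The share of genes with the whole order was not computed. The narrowest step was that from LIF-treated BAE to vehicle-treated BCE cells, where the means differed by 94.1 CPM with a combined SD of 38.4 CPM, a difference that was not tested. Both LIF-treated BAE libraries were below both BCE libraries without LIF.

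NDRG1 had the same order of groups. Vehicle-treated BAE libraries held 58.7 and 56.6 CPM (2017 and 1235 counts), and LIF-treated BAE libraries 69.7 and 74.2 CPM. Vehicle-treated BCE libraries held 138 and 148 CPM and LIF-treated BCE libraries 183 and 187 CPM. Again no groups overlapped, which for single pairs of groups is common among all genes, as given above. The widest step lay between the cell types, where the lowest vehicle-treated BCE library stood 1.86-fold above the highest LIF-treated BAE library, while the closest libraries across a LIF step differed 1.19-fold in BAE and 1.23-fold in BCE cells.

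STC1 was read in BCE cells and hardly at all in BAE cells. The vehicle-treated BCE libraries held 663 and 397 counts, or 22.3 and 16.5 CPM, and the LIF-treated ones 866 and 610 counts, or 33.5 and 31.7 CPM. BAE libraries held 4 and 4 counts with vehicle and 3 and 1 counts with LIF, between 0.0388 and 0.183 CPM, which is the level of a few counts. STC1 in BAE cells was therefore not read as expression, nor its values as a change. These values describe a gene chosen with the low BAE counts known.

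**Figure D1:**
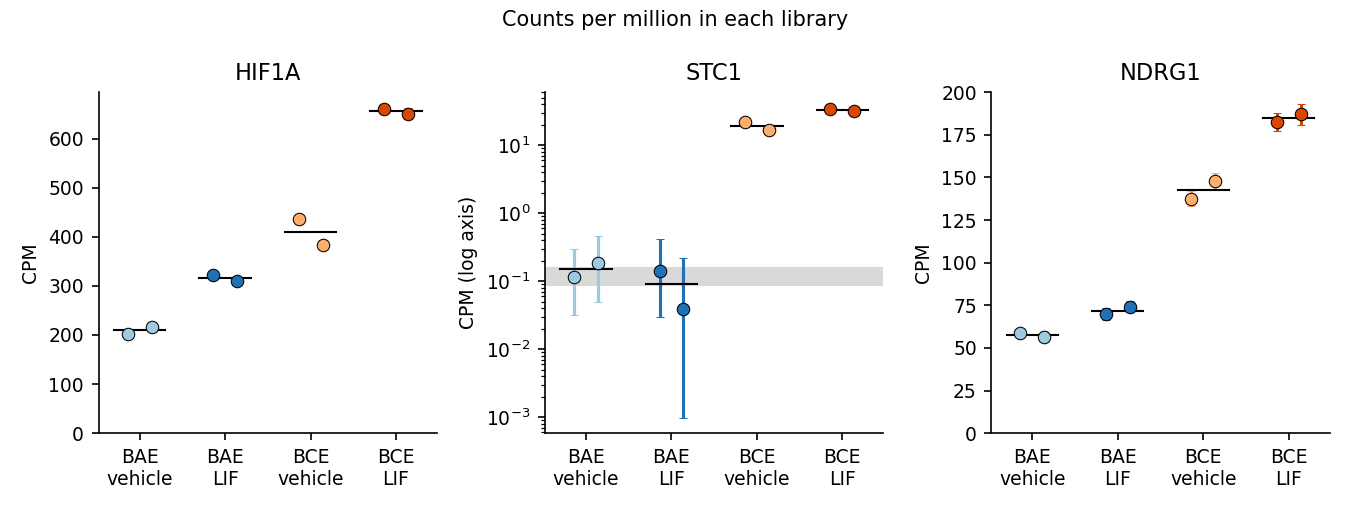
Levels in CPM (vertical axes) of HIF1A, STC1 and NDRG1 in each of the 8 libraries. Points are libraries with 95% counting intervals, black lines are group means, STC1 is on a log axis, and its grey band marks the level of 3 counts (0.0873 to 0.156 CPM). HIF1A and NDRG1 rise stepwise through the 4 groups, whereas STC1 is at the level of the grey band in BAE cells and between 16.5 and 33.5 CPM in BCE cells.

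The genes were not picked for their LIF response in BAE cells. Earlier results of these data were known when they were picked, among them the low BAE counts of STC1. HIF1A rose from 210 ± 9.85 to 316 ± 8.27 CPM (mean ± SD of 2 libraries). The log2 fold change was 0.62 with a standard error (SE) of 0.0452 (adjusted p = 2.9e-08, edgeR's quasi-likelihood test). The 4 ratios between single LIF-treated and vehicle-treated libraries lay from 1.43 to 1.59. NDRG1 rose from 57.6 ± 1.51 to 71.9 ± 3.17 CPM. Its log2 fold change was 0.35 (SE 0.0579, adjusted p = 0.000292, same test), with single ratios from 1.19 to 1.31. Both libraries with LIF were above both without it for each gene. Among all 13034 genes tested in BAE cells, 22.2% were called (13.6% higher and 8.55% lower), and 26% had both LIF-treated libraries above both vehicle-treated ones. From the highest log2 fold change down, HIF1A held rank 522 and NDRG1 rank 1300. STC1 did not pass the filter on low counts and was not tested. Its 4 counts with LIF and 8 with vehicle gave a ratio of 0.602 with a 95% counting interval from 0.133 to 2.25, so that neither a rise like that in BCE cells nor a fall was detectable at this depth.

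In BCE cells all 3 genes rose after LIF by the choice of the genes, and the values are a description without a test. HIF1A rose from 410 ± 37.5 to 656 ± 7.35 CPM (mean ± SD of 2 libraries), which is 0.68 on the log2 scale (SE 0.0602). STC1 rose from 19.4 ± 4.11 to 32.6 ± 1.30 CPM, or by 0.75 (SE 0.126). NDRG1 rose from 143 ± 7.29 to 185 ± 3.00 CPM, or by 0.37 (SE 0.0546). Among 13014 genes tested, 0.692% were called higher and 0.231% lower, and 20.1% had both LIF-treated libraries above both others.

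How large the rise was in BCE cells depended on the vehicle-treated libraries. HIF1A was 1.14-fold higher in vehicle-treated BCE replicate 1 than in replicate 2, with a counting interval from 1.11 to 1.17. For STC1 the same ratio was 1.35, from 1.19 to 1.54. NDRG1 went the other way and was 1.07-fold higher in replicate 2, from 1.03 to 1.12. Without vehicle-treated BCE replicate 1 the log2 fold change of STC1 was 0.99 and that of HIF1A 0.78, and without replicate 2 they were 0.55 and 0.59. The LIF-treated BCE libraries were closer, at 1.02-fold for HIF1A and NDRG1 and 1.06-fold for STC1, intervals that include 1 for each of them.

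**Figure D2:**
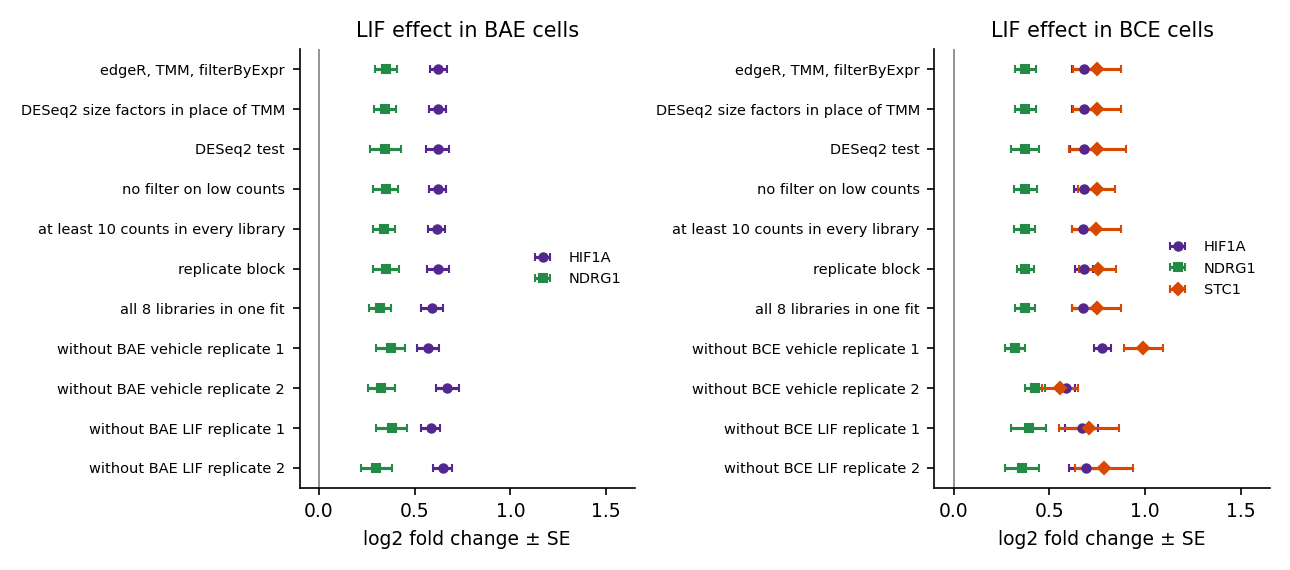
Log2 fold change after LIF (horizontal axes, bars are standard errors) in BAE and BCE cells under the main and each alternative processing, one row per setting. HIF1A, NDRG1 and, in BCE cells, STC1 stay above 0 in every row. In BCE cells the genes were chosen for this rise, so the values there are a description. STC1 moves most, from 0.55 to 0.99, when a vehicle-treated BCE library is left out.

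The LIF effects on HIF1A and NDRG1 in both cell types were then compared as an interaction over all 8 libraries. For HIF1A the log2 fold change in BCE cells minus that in BAE cells was 0.09 (95% confidence interval from -0.09 to 0.26, adjusted p = 0.67, edgeR's quasi-likelihood test). For NDRG1 it was 0.05 (from -0.11 to 0.22, adjusted p = 0.792). As a ratio of folds the intervals run from 0.940 to 1.20 for HIF1A and from 0.926 to 1.16 for NDRG1, and a difference inside them was not detectable. The difference passed the threshold in 3.68% of the 13646 genes tested, and 2.52% were lower in BCE cells. The BCE effect that the genes were chosen on is part of this contrast. The sign of the difference turned to -0.03 for HIF1A without vehicle-treated BCE replicate 2 and to -0.01 for NDRG1 without replicate 1. On the linear scale HIF1A gained 246 ± 38.2 CPM in BCE and 106 ± 12.9 CPM in BAE cells, and NDRG1 42.0 ± 7.89 and 14.3 ± 3.51 CPM (difference of means with the combined SD, n = 2 per group).

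**Figure D3:**
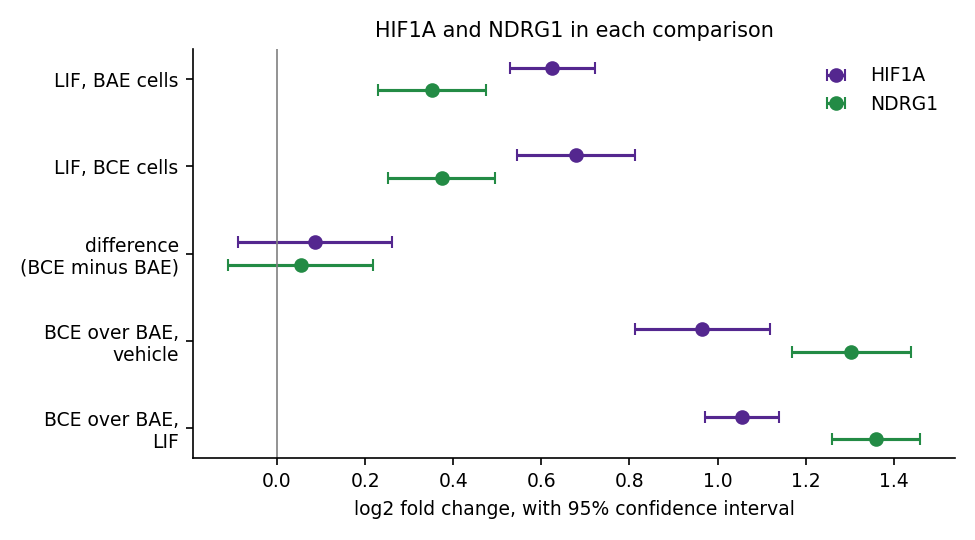
Log2 fold changes (horizontal axis) of HIF1A and NDRG1 in the 5 comparisons (vertical axis), with 95% confidence intervals. The intervals of the difference between the LIF effects include 0 for both genes, and those of the other comparisons lie above 0. Those of LIF in BCE cells and of the LIF-treated comparison are a description, since the genes were chosen on the rise in BCE cells. The difference between cell types is larger than the LIF effect for each gene.

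For both genes the fitted difference between the cell types was larger than either LIF effect. Without LIF, HIF1A was higher in BCE than in BAE cells by a log2 fold change of 0.97 (SE 0.0697, adjusted p = 2.42e-07, edgeR's quasi-likelihood test), a 1.95-fold difference. NDRG1 was higher by 1.30 (SE 0.0617, adjusted p = 5.13e-09, same test), or 2.47-fold. This comparison shares its vehicle-treated BCE libraries with the LIF comparison in BCE cells. It called 26.2% of 13426 genes higher and 27.6% lower in BCE cells, so a call here is common, and 38.5% had both BCE libraries above both BAE libraries. Of all genes 9.51% of the genes had a larger value than HIF1A and 7.01% than NDRG1. In the LIF-treated libraries the BCE pair also entered the LIF comparison on which the genes were chosen as higher, so these values are a description. HIF1A was higher in BCE cells by 1.06 (SE 0.0409) and NDRG1 by 1.36 (SE 0.0489). Of 13217 genes 63.9% were called, 31.7% higher and 32.2% lower, and 40.5% had both BCE libraries above both BAE libraries. All of these BCE libraries were in 10% and all BAE libraries in 1% serum.

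For STC1 the difference between the cell types is given as a ratio of summed counts. With vehicle, 1060 counts in BCE stood against 8 in BAE libraries, a ratio of 138 after scaling, with a 95% counting interval from 69.9 to 321. With LIF, 1476 counts stood against 4, a ratio of 382 from 149 to 1405. The intervals cover counting error only. They describe the gap in counts that was known when STC1 was chosen, and no test is given.

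The wider oxygen-sensing pathway could be followed only in part. Of 133 genes in lists of HIF subunits, oxygen sensors, HIF targets, relatives of STC1 and NDRG1, NDRG1 regulators and LIF signalling, 124 could not be paired with an identifier and were not analysed here. Among these are the classical targets VEGFA, SLC2A1, PDK1, LDHA, BNIP3, CA9, ADM, EGLN3 and ANKRD37, the partner ARNT and the paralog EPAS1. Beside the 3 genes, 6 could be named and are reported (CXCR4, VLDLR, MYC, STAT3, SOCS3 and OSMR). All 6 had been called by the study after LIF in BCE cells, so their direction there is no independent evidence. In BAE cells 5 of the 6 rose and 1 fell, against 13.6% and 8.55% of all genes, counts that leave out list genes not reported here. Their median log2 fold change in BAE cells was 0.94, against 0.00 for all genes, and it lies between MYC and the LIF signalling gene STAT3, not among the HIF targets.

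Both known HIF targets among them changed in BAE cells, in opposite directions. VLDLR, a lipoprotein receptor that hypoxia induces, rose in BAE cells from 91.2 to 126 CPM, a log2 fold change of 0.50 (SE 0.0481, adjusted p = 9.56e-07, edgeR's quasi-likelihood test), and had 0.34 in BCE cells. CXCR4, the receptor of the chemokine CXCL12, fell in BAE cells from 377 to 264 CPM, with a log2 fold change of -0.48 (SE 0.0421, adjusted p = 2.94e-07, same test), and had -0.51 in BCE cells. A target that was higher and one that was lower with LIF therefore stood beside the higher HIF1A mRNA in each cell type.

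MYC, a relative of the N-myc that NDRG1 is named after, rose in BAE cells from 204 to 370 CPM, a log2 fold change of 0.89 (SE 0.0441, adjusted p = 2.49e-10, edgeR's quasi-likelihood test), and had 0.31 in BCE cells. NDRG1 and MYC were thus both higher with LIF in each cell type. Without LIF they were placed in opposite order, since MYC was lower in BCE than in BAE cells by a log2 fold change of -0.22 (SE 0.055, adjusted p = 0.00464, same test) where NDRG1 was higher. In the LIF-treated libraries the order was opposite too, with a log2 fold change of -0.77 (SE 0.0431) for MYC. Of the LIF signalling genes, SOCS3, the feedback inhibitor of JAK kinases, had the largest log2 fold change in BAE cells with 3.44, followed in adjusted p by STAT3 with 0.99 and the oncostatin M receptor gene OSMR with 1.20. In BCE cells these values were 1.21, 0.63 and 0.92.

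**Figure D4:**
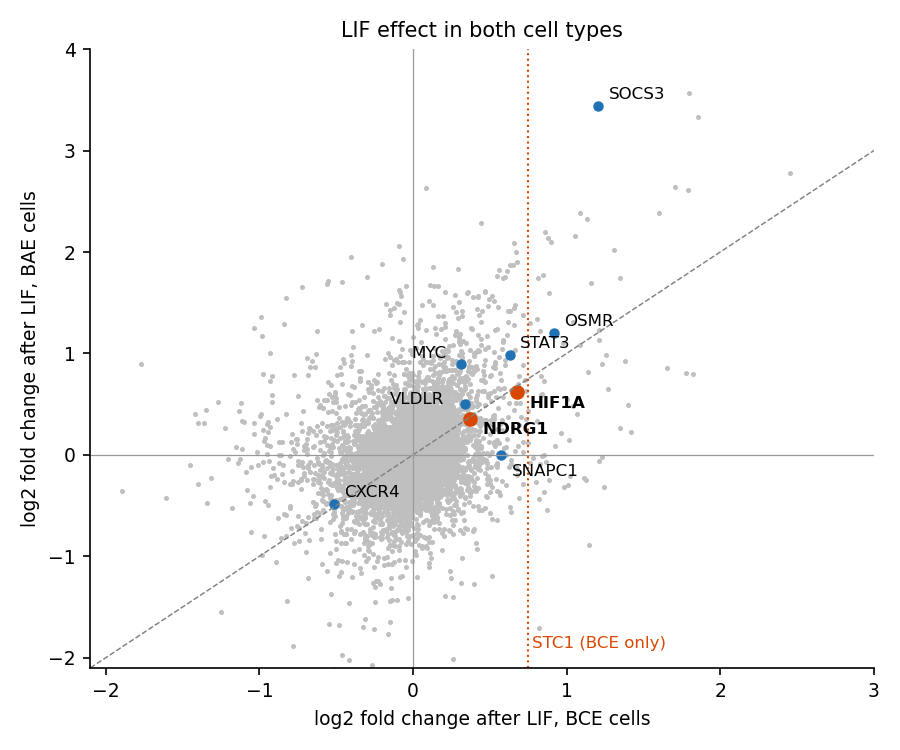
Log2 fold change after LIF in BCE cells (horizontal axis) against that in BAE cells (vertical axis) for the 12457 genes tested in both, of which 13 lie outside the axes. HIF1A and NDRG1 (orange) lie close to the dashed line of equal effect, SOCS3, MYC and STAT3 (blue) above it and SNAPC1 below it, and the dotted line marks the BCE value of STC1, which was not tested in BAE cells.

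All 110 other genes with a name had been called by the study after LIF in BCE cells, so only such genes could be named here. Among them, those with the profile most like each gene over the 8 libraries were found by Pearson's r of log2 CPM. VLDLR was most like HIF1A (r = 0.984), with 3 of all 13645 other genes closer, followed by IL4R, SLC23A2, SOD2 and TNFSF18. LRRC32, a docking receptor of latent TGF-beta, was most like NDRG1 (r = 0.996), with 1 gene closer, followed by TNFSF18, SYBU, CELF4 and SNAPC1. SYBU, an adaptor of kinesin transport, was most like STC1 (r = 0.987), but 330 genes were closer, and MEOX2, SLCO2B1, SNAPC1 and LRRC32 followed. The 4 BAE values of STC1 are at the level of a few counts, so its r reflects the gap between BCE and BAE cells for which it was chosen. These values are a description over 8 libraries that share 2 cell types, and 53.8% of genes were called between those without LIF. An r over 0.9 was reached by 3.09% of all genes with HIF1A, 13.1% with NDRG1 and 17.3% with STC1. By Spearman's rho only 2 of the 5 genes named for HIF1A, 1 for NDRG1 and 1 for STC1 were again among the 5. Between HIF1A and NDRG1 r was 0.943.

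**Figure D5:**
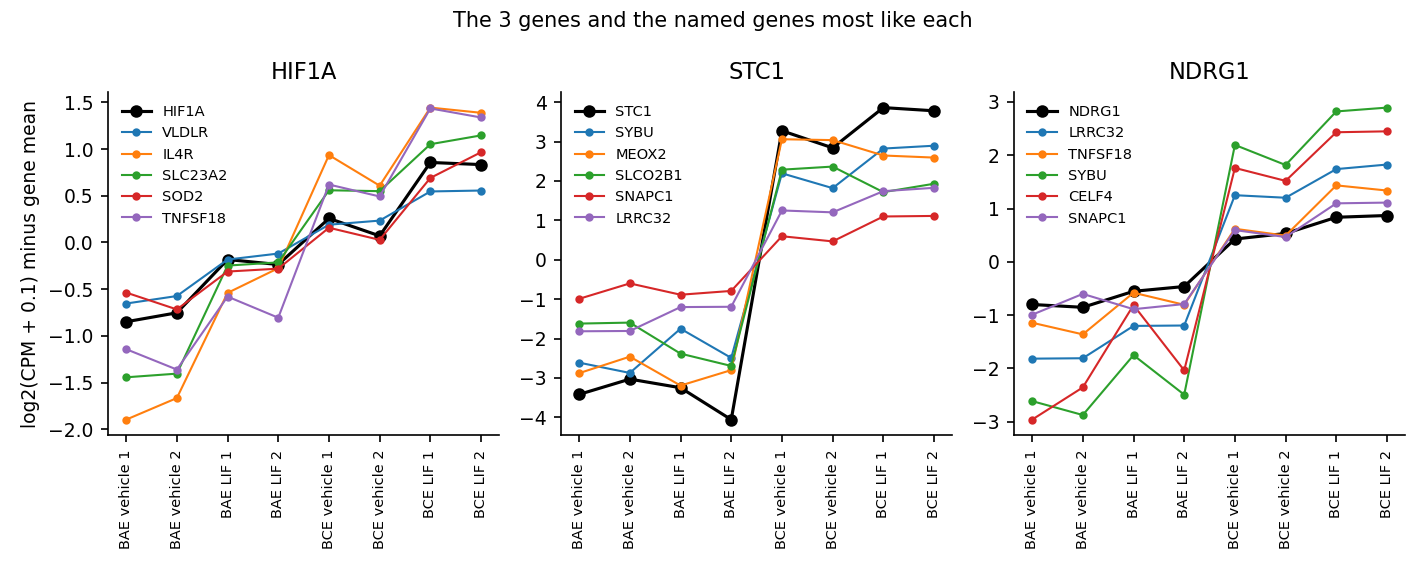
Profiles of HIF1A, STC1 and NDRG1 (black) and of the 5 named genes most like each over the 8 libraries (horizontal axis), as log2(CPM + 0.1) minus the mean of the gene (vertical axis). Lines only join the values of a gene. HIF1A, NDRG1 and most of the genes closest to them climb over the 4 groups, and in the STC1 panel the widest step of every gene lies between BAE and BCE cells.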

How the data were processed

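Whole-culture RNA of 8 libraries was sequenced as paired-end reads. The authors aligned the reads to Bos_taurus_UMD_3.1 with TopHat2 (version 2.0.12), counted them per gene with HTSeq (version 0.6.1) and deposited raw counts without normalization. The counting mode and use of strand are not given in the sources used here. In the RefSeq table of another assembly (ARS-UCD2.0), a long non-coding RNA overlaps the span of HIF1A, and 0 entries overlap STC1 or NDRG1. Exons and strand were not compared, so whether reads of that RNA were counted for HIF1A was not tested. The authors' tables of fold changes and p-values were not used, except for gene names, and that for BAE cells holds the same bytes as that for BCE cells. Names come from that table and Dataset EV3 and cover 111 identifiers.

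Here, low genes were removed by filterByExpr at a minimum count of 10 and a total of 15, and libraries were scaled with TMM and compared by the quasi-likelihood test of edgeR (version 4.0.16, R version 4.3.3), adjusted after Benjamini-Hochberg over all genes tested, at 0.05. Each comparison used its own 4 libraries without a replicate block, and the difference of the LIF effects all 8. The SE was derived from the F statistic. Counting intervals are exact 95% intervals (Poisson or conditional binomial) and cover counting error only. Tests were checked on counts simulated with the spread fitted to these data. The interaction test recovered 31% of genes changed by 0.5 in log2 and 72.5% of those changed by 1. At 0.5 the test of the LIF effect recovered 65.5% in BAE and 61.5% in BCE cells. Alternatives were DESeq2 (version 1.42.0) or its size factors, no filter, 10 counts in every library, a replicate block, all 8 libraries, and each library left out. Some list genes are not reported here and are in no count of the lists. The genes and lists were chosen with earlier results of these data known. Named are the 3 genes, up to 3 genes a list and direction by adjusted p, and the 5 named genes most alike.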

Additional observations from a re-analysis of the deposited data

Results flagged for a closer look

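For 3 of the 6 named genes that were followed beside HIF1A, STC1 and NDRG1, the response to LIF was unequal in the cell types by the interaction test of edgeR, which called 3.68% of all genes (2.52% lower in BCE cells). All 6 had been called by the study after LIF in BCE cells, an effect that is part of this contrast. The log2 fold change in BCE cells minus that in BAE cells was -2.21 for SOCS3 (adjusted p = 1.05e-07), -0.55 for MYC (adjusted p = 0.000203) and -0.33 for STAT3 (adjusted p = 0.0075). SOCS3, MYC and STAT3 were higher with LIF in both cell types and moved further in BAE cells.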

How the results depend on the processing

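For HIF1A and NDRG1, in the comparisons other than LIF in BCE cells, 84 of 86 values under an alternative kept the direction and the side of the threshold. The count includes the LIF-treated comparison of the cell types, given above as a description. It also includes the difference of the LIF effects, which passed the threshold under no setting for either gene. There 12 of 13 values kept the direction for each gene. In BAE cells the log2 fold change ranged from 0.57 to 0.67 for HIF1A and from 0.30 to 0.38 for NDRG1 when each library was left out. In BCE cells it ranged from 0.59 to 0.78 for HIF1A and from 0.55 to 0.99 for STC1, in each case highest without vehicle-treated replicate 1. For NDRG1 in BCE cells the range was 0.32 to 0.42. The difference of the LIF effects ranged from -0.0307 to 0.17 for HIF1A and from -0.0131 to 0.10 for NDRG1. Signs also turned where the test was not passed, for SNAPC1 in BAE cells (-0.21 to 0.19) and CXCR4 in the difference (-0.0536 to 0.0269, and 0.00198 without the filter). The cause was not tested. With a library left out, a lone library is assumed to vary like the other group.

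Counts of called genes depended more on the processing. In BCE cells 120 genes were called, 437 without the filter, 217 with all 8 libraries in one fit, and 55 to 1423 with each library left out, the highest without vehicle-treated replicate 1. With 1 or the other LIF-treated BCE library left out, 4 of the 6 other named genes were called. In BAE cells 2889 were called, 1920 with DESeq2 and 1807 without LIF-treated replicate 1. For the difference 502 were called, 889 without the filter and 261 to 948 with each library left out.

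Under the replicate block the log2 fold change in BAE cells was 0.62 for HIF1A and 0.35 for NDRG1, and 226 genes were called in BCE cells. The block changed no call of HIF1A or NDRG1. Same-numbered libraries did not deviate together (correlations from -0.0531 to 0.100), and the labels give no shared origin for a number. The numbers are those of the sample titles, and the sample descriptions number the libraries differently, a numbering that was not tried. The few counts of STC1 in BAE cells limit what depth can show there.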

Other observations

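SNAPC1, a subunit of the complex that activates small nuclear RNA genes, is the nearest protein-coding entry on one side of HIF1A in the RefSeq table of ARS-UCD2.0. It was picked after its values were seen. SNAPC1 (ENSBTAG00000020937) went from 13.1 ± 0.845 CPM with vehicle to 19.5 ± 0.135 CPM with LIF in BCE cells (SD, n = 2), where the study had called it. In BAE cells it had 5.19 ± 1.01 and 4.99 ± 0.241 CPM, a log2 fold change of -0.00 (SE 0.170, adjusted p = 0.993, edgeR's quasi-likelihood test), while HIF1A rose there. The difference of the LIF effects on SNAPC1 was 0.60 (SE 0.191, adjusted p = 0.108, same test), and 0.61 (adjusted p = 0.0389) without the filter on low counts. Under the 13 alternatives it lay between 0.42 and 0.81, and 12 of them stayed on the same side of the threshold as the main fit. The BCE effect for which the study had called SNAPC1 is part of this contrast.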
